A study of Mus musculus with 96 samples.

Results

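A set of 36 genes of fatty acid oxidation and of its regulation by PPAR alpha was examined in mouse liver: the receptor Ppara itself, genes commonly counted among its targets, and the enzymes that carry, activate and oxidise fatty acids in mitochondria and peroxisomes. They were listed by name and not by a measured value, although with earlier results of these data known. Of the 36, 35 were measured among 18193 genes; Acsl1, a fatty acyl-CoA synthetase, had no probe set of its own and was not analysed here. A gene with several probe sets was read from the brightest on average.

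The livers came from CD-1 mice, an outbred stock, of both sexes. PB, an abbreviation that the labels do not spell out, was given in the diet for 2 or 7 days. The lowest of the 5 doses was 0.15 mg/kg-day, the next were 1.5 and 15, and the highest were 75 and then 150, and the series is titled as dose-response modelling of early events in liver carcinogenesis mediated by the receptor CAR. These units are those of the design text, whereas titles of single samples have ppm beside equal numbers, so the unit is not settled. Total RNA was hybridised to 96 arrays, 4 in each of 24 groups of 1 sex, 1 day and 1 dose. Every group received the same diet route, the dose 0 groups are the controls, and the age of the mice is not given in the labels.

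PPAR alpha is a nuclear receptor for fatty acids that binds DNA as a pair with RXR, mostly at a repeated hexamer called DR1. In the fasted liver it raises the genes that take up fatty acids, pass them as carnitine esters into mitochondria and shorten them by beta-oxidation. Each turn of beta-oxidation is a dehydrogenation, a hydration, a second dehydrogenation and a thiolytic cleavage, and the electrons of the first step reach the respiratory chain through electron transfer flavoprotein (ETF) and its dehydrogenase. CAR, encoded by Nr1i3, is another nuclear receptor of the liver and shares RXR as its partner.

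The RefSeq promoter windows of GRCm38.p6, from 250 bases before to 50 after a gene's start, were searched on both strands for the DR1 letters AGGTCANAGGTCA, in which the hexamer AGGTCA occurs at either end. Windows on 1 chromosome were left out of the search, and 31 of the 36 genes had a window among those searched. A gene with several windows was counted once, by its best. None of the 31 held the full motif, against 0.05% of all 27025 genes searched. With up to 1 mismatch it was found in 1 of 31 (3.2%, against 0.64% of all genes), and with up to 2 mismatches in 7 of 31 (22.6%, against 4.4% of all genes). The hexamer alone was in 8 of 31 (25.8%, against 18.13% of all genes). The 7 stretches are printed because they are the nearest matches to the receptor's motif among the genes described, 5′ to 3′ on the gene's strand, with the matched 13 bases in capitals.

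Fabp1: acaatcacTGACCTATGGCCTatatctga
Acot4: ccgaagcaTGACCTTTGGCCGgtctgtgc
Cd36: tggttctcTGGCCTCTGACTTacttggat
Creb3l3: ctgtaagtAGGGGAGAGGTCAcacagacc
Etfa: gcacacccTTACCTTTGCCCTactcccaa
Plin2: agctttcaGGACCCCTGACCTaagtcaga
Slc25a20: ctgaatgtAGGTGAAAGGTCGgcggagcc

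The Fabp1 stretch, the match with 1 mismatch, lies at chr6:71199804-71199832 on the plus strand, and its motif starts 67 bases before the gene's start (position -67). The others each hold 2 mismatches. The Acot4 stretch is at chr12:84038358-84038386 (plus strand, position -13) and the Slc25a20 stretch at chr9:108662134-108662162 (plus strand, position 7). The Cd36 stretch is at chr5:17835939-17835967 (minus strand, position -63), the Creb3l3 stretch at chr10:81092780-81092808 (minus strand, position -209), the Etfa stretch at chr9:55512300-55512328 (minus strand, position -77) and the Plin2 stretch at chr4:86670264-86670292 (minus strand, position -225). These matches describe letters in a window and show no binding. Of the 7 genes, Etfa, Plin2 and Slc25a20 are among those that fell at 150 mg/kg-day below, Cd36 rose, and Fabp1, Acot4 and Creb3l3 did not pass the test. Hadha and Hadhb, the subunits of the mitochondrial trifunctional protein, start 273 bases apart on opposite strands, and their windows overlap by 228 bases.

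Cyp2b10, a standard target of CAR, was 5.78 ± 0.20 log2 units (SE) higher at 150 than at 0 (adjusted p = 1.11e-38), and all 12 measured genes of a list of CAR targets rose. In 2 arrays these levels went against the label. The array labelled males, day 2, 15 mg/kg-day, replicate 1 had 13.66 for Cyp2b10 and 13.01 for Cyp2c55, against 11.07 to 11.29 and 8.89 to 10.14 in the other 3 arrays of its group. The array labelled males, day 2, 75 mg/kg-day, replicate 1 had 10.98 and 9.82, against 13.19 to 13.36 and 12.54 to 12.74 in its group. Results at 15 and 75 are therefore given with and without both. Hepatocyte markers were the highest of the marker lists: their summed level was 17.39 to 17.44 on the log2 scale at 150 and 17.43 to 17.49 at 0, with 3 of 10 markers lower and 1 higher. The sums at 150 lay below those at 0 without overlap in all combinations but males on day 7, and the part of this shift in the results was not tested.

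Across the 4 combinations of sex and day, fatty acid oxidation genes fell at 150 mg/kg-day. In the mean of the 4 differences, 22 of 35 were lower and Cd36 alone was higher, where 9.42% of all 18193 genes were lower and 8.27% higher (limma, all 96 arrays, adjusted p under 0.05). Their median log2 change was -0.18, against -0.01 over all genes. Most changes were small: 19.9% lower for Acadvl, 25.4% for Etfdh, and 47.4% for Angptl4, the largest among the 22. The genes that moved least included Fabp1, Hadh, Etfb and Creb3l3, whose mean changes lay within 0.06 log2 units of 0.

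**Figure D1:**
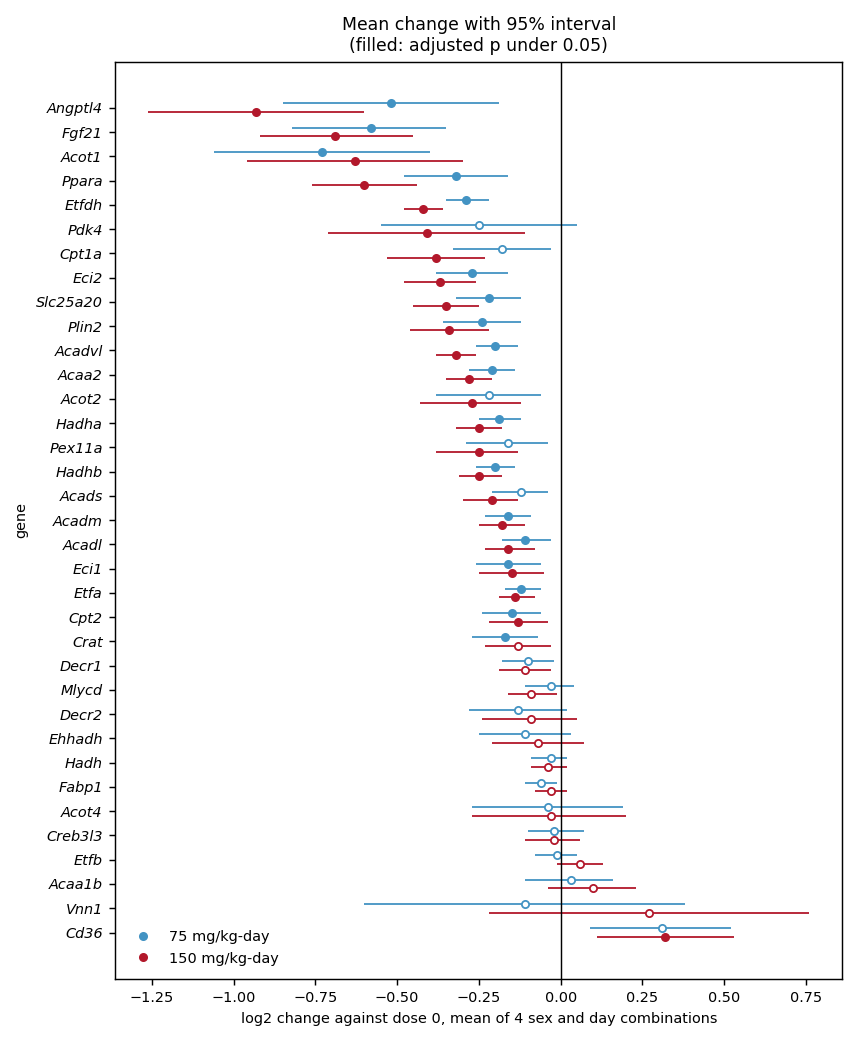
Log2 change against dose 0 (horizontal axis) of the 35 genes, as the mean of the 4 sex and day combinations, at 75 mg/kg-day (blue) and 150 mg/kg-day (red). Points are limma estimates, lines are 95% intervals, and filled points passed the adjusted p of 0.05. At 150 the red points of 22 genes are filled to the left of 0, from Angptl4 at -0.93 to Cpt2 at -0.13, and Cd36 at 0.32 is the filled point to the right.

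In single combinations the calls at 150 were fewer and again nearly all lower. In males on day 7, 6 of 35 were lower (0.835% of all genes) and 1, Cd36, was higher (2.2%). Day 2 males had 9 lower (2.4% of all genes) and none higher (limma, 2.5% of all genes). In either direction 15 had an unadjusted p under 0.05, as did 2923 of all 18193 genes. In females on day 7, 13 were lower (0.923%) and none higher (1.52%), with 21 at an unadjusted p under 0.05 (2492 of all genes). In females on day 2, 8 were lower (2.14%) and none higher (3.32%), with 15 at an unadjusted p under 0.05 (2941 of all genes). All 4 treated arrays lay below all 4 controls for 11 of the 35 in males on day 7 (2.89% of all genes), 10 in males on day 2 (5.99%), 18 in females on day 7 (4.34%) and 8 in females on day 2 (5.61%). These counts rest on few arrays: without replicate 2 of the treated males the 6 of day 7 became 3, without control replicate 1 the 9 of males on day 2 became 6, without control replicate 1 or 2 the 13 of females on day 7 became 6, and without treated replicate 2 the 8 of females on day 2 became 4. Fitted with the groups compared alone, they became 4 in males on day 7, 4 in males on day 2, 5 in females on day 7 and 2 in females on day 2. Acadvl, Hadha and Eci2 were lost in males on day 7. In females on day 7, Ppara, Fgf21, Plin2, Acadl, Acadm, Hadha, Hadhb, Acaa2 and Pex11a were lost. Both day 7 counts thus include a gene that the main fit did not call. Ppara, Acadvl and Etfdh were lower in all 4 combinations, as were 21 of all 18193 genes (0.115%). Hadha, Hadhb, Acaa2 and Eci2 were lower in 3, Angptl4, Slc25a20 and Acadm in 2, and Fgf21, Plin2, Cpt1a, Acadl, Acads and Pex11a in 1. Some of these calls were lost under alternatives, of which 18 were run in each combination. Among the 18 were fits that left out only arrays at 15 or 75, which could move a call at 150 only through the shared spread. Acadvl was lost under 1 in males on day 7 and in females on day 2, in both with the groups compared alone. Eci2 was lost under 7 in males on day 7, 5 in males on day 2 and 3 in females on day 7. Hadha was lost under 4 in males on day 7, 1 in females on day 7 and 6 in females on day 2. Hadhb, Acaa2, Slc25a20 and Acadm were lost under 1 to 4 in each combination where they were called, and Acadl under 4 and Acads under 3. The fitted change was below 0 in all 4 combinations for 24 of the 35, and for 18.1% of all genes.

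**Figure D2:**
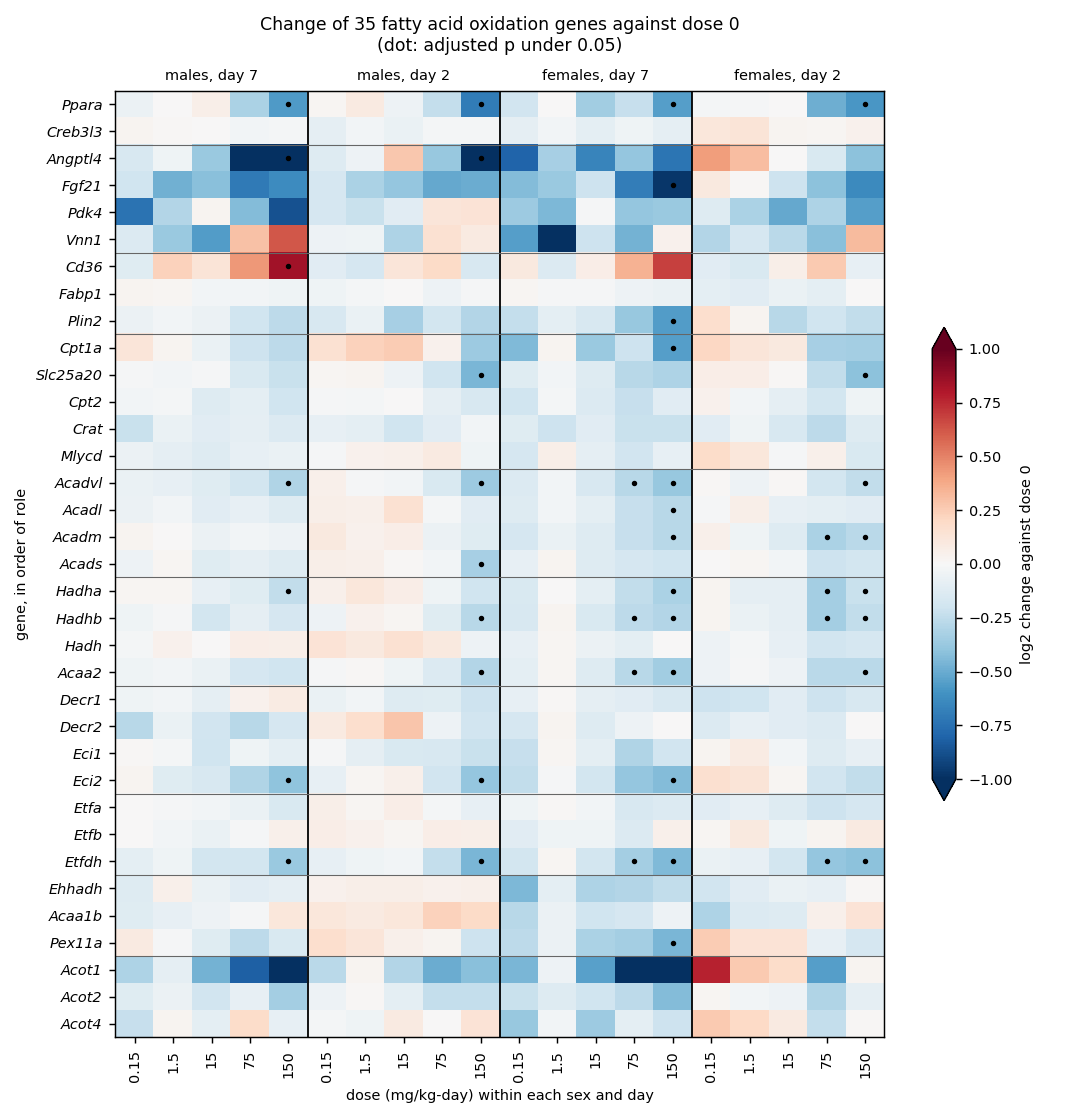
Log2 change of each of the 35 genes (rows, ordered by role) against the matching untreated group, for 5 doses (columns, mg/kg-day) in males on day 7, males on day 2, females on day 7 and females on day 2. Blue is lower and red higher, colours end at 1 log2 unit, and a dot marks an adjusted p under 0.05. Dots gather in the columns for 150, and the rows of Ppara, Acadvl and Etfdh carry one in each of the 4.

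The receptor itself fell. In males on day 7, Ppara had log2 levels of 10.08, 10.25, 10.29 and 10.32 at 150, against 10.86, 10.89, 10.63 and 10.84 at 0. On day 2 the males had 9.62, 9.68, 10.09 and 10.13 at 150, against 10.25, 10.54, 10.76 and 10.77 at 0. All treated arrays of both male groups lay below all their controls. In females on day 7 Ppara had 10.60, 10.38, 10.07 and 10.35 at 150, against 11.17, 10.78, 10.78 and 10.88 at 0, and in females on day 2 it had 9.85, 10.00, 10.32 and 9.94, against 10.76, 10.59, 10.67 and 10.41, again without overlap. The mean change of Ppara was -0.60 ± 0.08 (SE), 34.0% lower (adjusted p = 8.39e-09), and its other probe sets gave -0.58 and -0.55. In single combinations the call was lost under 5 of 18 alternatives in males on day 7, 1 in males on day 2, 7 in females on day 7 and 2 in females on day 2. Creb3l3, a membrane-bound transcription factor that works with PPAR alpha in fasting, changed by -0.02 ± 0.04 (adjusted p = 0.783).

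Angptl4, Fgf21, Pdk4 and Vnn1 are fasting-induced genes under PPAR alpha: a secreted inhibitor of lipoprotein lipase, a liver hormone, the kinase that shuts pyruvate dehydrogenase and a pantetheinase. Angptl4 had 9.92, 9.14, 9.55 and 8.88 in males on day 7 at 150, against 11.24, 10.34, 10.63 and 11.24 at 0. On day 2 it had 8.30, 9.11, 9.09 and 9.32 at 150, against 9.98, 9.66, 10.64 and 9.87 at 0. Treated and control arrays did not overlap in either male group, and the changes were -1.49 ± 0.33 on day 7 (adjusted p = 0.00257) and -1.08 ± 0.33 on day 2 (adjusted p = 0.0392). The day 2 call was lost under 8 of 18 alternatives. In females Angptl4 was at -0.73 ± 0.33 on day 7 (adjusted p = 0.291) and -0.41 ± 0.33 on day 2 (adjusted p = 0.614), and in the mean of the 4 it fell by 0.93 ± 0.17 (adjusted p = 1.09e-05).

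Fgf21 was a weak signal, with levels of 4.93 to 5.97 at 150 and 5.42 to 6.58 at 0 over the 16 arrays of each. In females on day 7 it had 5.18, 4.94, 5.31 and 5.21 at 150, against 6.56, 6.55, 5.42 and 5.98 at 0. All 4 treated arrays lay below the controls, although 1 control was close to them, and the change was -0.97 ± 0.24 (adjusted p = 0.00933). That call was lost without control replicate 1 or 2 and with the groups compared alone. Fgf21 fell in the mean of the 4 by 0.69 ± 0.12 (adjusted p = 4.64e-06). Pdk4 ran from 5.41 to 7.42 at 150 and from 5.62 to 7.83 at 0, and its mean change of -0.41 ± 0.15 (adjusted p = 0.0463) was lost under 23 of 42 alternatives. Vnn1, the most variable of the 35 within groups (SD 0.72), was at 0.27 ± 0.25 (adjusted p = 0.519).

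Of the genes for uptake, binding and storage, Plin2 fell, Fabp1 did not pass the test and Cd36 rose. Plin2 coats lipid droplets. In females on day 7 it had 11.80, 11.75, 12.02 and 11.71 at 150, against 12.70, 12.40, 12.10 and 12.30 at 0, with every treated array below every control (-0.56 ± 0.12, adjusted p = 0.00283). Without control replicate 1, or with the groups compared alone, that call was lost. In the mean of the 4 the fall was 0.34 ± 0.06 (adjusted p = 1.37e-05). Fabp1, the abundant fatty acid binding protein of the hepatocyte cytosol, ran from 14.28 to 14.52 at 150 and from 14.40 to 14.56 at 0, near the highest value that the arrays gave (14.86 to 14.97), which may compress differences. Its mean change was -0.03 ± 0.03 (adjusted p = 0.507).

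Cd36, a fatty acid translocase at the cell surface, was the gene whose response differed between the days. On day 7, treated males had 9.05, 9.01, 8.18 and 7.97, against 7.66, 7.76, 7.86 and 7.56 at 0, and treated females had 8.64, 8.82, 9.20 and 8.34, against 8.21, 7.80, 8.04 and 8.23. All treated arrays lay above their controls in both sexes on day 7. On day 2, treated males had 7.88, 7.52, 8.06 and 7.96, against 7.98, 7.83, 8.29 and 7.96 at 0, and treated females had 8.22, 7.93, 7.77 and 8.19, against 8.06, 8.04, 7.95 and 8.38. The day 2 groups overlapped. The changes of Cd36 were 0.84 ± 0.21 in males on day 7 (adjusted p = 0.0104), -0.16 ± 0.21 in males on day 2 (adjusted p = 0.802), 0.68 ± 0.21 in females on day 7 (adjusted p = 0.0623) and -0.08 ± 0.21 in females on day 2 (adjusted p = 0.907). The response on day 7 minus that on day 2 was 0.88 ± 0.21 (adjusted p = 0.00775), a call made for 0.83% of all genes in that direction and for no other of the 35. It held under each alternative run, and the other 2 probe sets of Cd36 gave 0.95 (adjusted p = 0.0151) and 0.63 (adjusted p = 0.0235). The call in males on day 7 was lost without treated replicate 1 or 2 and when the groups compared were fitted alone. The mean of the 4 differences, 0.32 ± 0.11 (adjusted p = 0.0239), was lost without either of those arrays or without treated replicate 3 of females on day 7.

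Cd36 is also expressed by macrophages, adipocytes and endothelium, and markers of these cells were read beside it. The summed log2 level of 13 Kupffer cell and macrophage markers was 13.71 to 14.36 at 150 and 12.86 to 13.54 at 0 in males on day 7, without overlap, and 13.71 to 14.23 against 13.50 to 13.74 in females on day 7. On day 2 it was 13.13 to 13.50 against 13.28 to 14.47 in males and 13.43 to 14.19 against 13.61 to 14.11 in females. In males on day 7, 3 of the 13 were higher: Mpeg1 by 1.28 ± 0.30 (adjusted p = 0.00452), Cd5l by 1.10 ± 0.27 (adjusted p = 0.00835) and Adgre1 by 0.77 ± 0.22 (adjusted p = 0.0315). Of 8 adipocyte markers, summed at 9.57 to 10.05 at 150 and 9.49 to 9.84 at 0, only Pparg rose, by 0.43 ± 0.11 in the mean of the 4 (adjusted p = 0.00164). In single combinations at 150 Pparg passed in males on day 7 alone (0.81 ± 0.21, adjusted p = 0.0141), where Cd36 also passed. Adipoq, Lep and Cidec were not above the arrays' lower quartiles. Endothelial markers were summed at 11.92 to 12.46 at 150 and 12.08 to 12.53 at 0, with 3 of 9 lower in the mean of the 4. In males on day 2 these sums did not overlap (11.92 to 11.98 against 12.11 to 12.32), and in the other combinations they did. The part of these cells in the rise of Cd36 was not tested. In whole liver, fewer cells of a type and less RNA per cell cannot be told apart.

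Fatty acids enter mitochondria through the carnitine shuttle, and 3 of its 5 measured genes fell in the mean of the 4. Slc25a20, the carnitine-acylcarnitine carrier of the inner membrane, had 10.43, 10.39, 10.66 and 10.48 at 150 in males on day 2, against 11.20, 11.01, 10.86 and 10.73 at 0. Every treated array was below every control there (-0.46 ± 0.10, adjusted p = 0.00141). In females on day 2 it had 10.40, 10.52, 10.97 and 10.50 at 150, against 10.91, 11.07, 10.97 and 11.07 at 0, where treated replicate 3 lay among the controls (-0.41 ± 0.10, adjusted p = 0.00485). On day 7 Slc25a20 had 10.89, 10.81, 10.63 and 10.56 in treated males, against 11.06, 11.03, 10.80 and 10.88, and 10.79, 10.84, 10.76 and 10.81 in treated females, against 11.34, 11.01, 10.91 and 11.16. The male groups of day 7 overlapped and the female groups did not, and neither change passed the test. Its mean change was -0.35 ± 0.05, 21.4% lower (adjusted p = 7.83e-08).

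Cpt1a, the liver form of the enzyme that sets the rate of entry, had 10.89, 10.82, 10.85 and 10.88 in females on day 7 at 150, against 11.57, 11.42, 11.46 and 11.20 at 0. The groups did not overlap (-0.55 ± 0.15, adjusted p = 0.0276), although the call was lost under 7 of 18 alternatives, among them 6 that left out an array. In the mean of the 4 Cpt1a fell by 0.38 ± 0.08 (adjusted p = 7.54e-05); its other probe sets gave -0.18 and -0.21 and did not pass. Cpt2, which re-forms the acyl-CoA inside, ran from 10.23 to 10.73 at 150 and from 10.33 to 10.91 at 0, and fell by 0.13 ± 0.04 (adjusted p = 0.0277), a call lost under 5 of 42 alternatives and at -0.08 with all probe sets averaged. Crat, carnitine acetyltransferase, was at -0.13 ± 0.05 (adjusted p = 0.0549) and Mlycd, which breaks down the Cpt1a inhibitor malonyl-CoA, at -0.09 ± 0.04 (adjusted p = 0.109).

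All 4 acyl-CoA dehydrogenases, which take the first step on very long, long, medium and short chains, fell in the mean of the 4. Acadvl, the enzyme for very long chains, had 11.88, 11.70, 12.02 and 11.93 in males on day 7 at 150, against 12.20, 12.19, 12.16 and 12.19 at 0. On day 2 it had 11.69, 11.84, 11.67 and 11.81 at 150, against 12.17, 12.00, 12.12 and 12.14 at 0. Both male groups were separate from their controls. In females Acadvl had 11.85, 11.90, 11.74 and 11.88 at 150 on day 7, against 12.19, 12.20, 12.20 and 12.29, and 11.76, 11.77, 11.88 and 11.91 at 150 on day 2, against 12.10, 12.04, 12.14 and 12.03, also without overlap. The mean change was -0.32 ± 0.03, 19.9% lower (adjusted p = 4.3e-13).

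Acadm, the medium-chain enzyme, fell in females, with 12.45, 12.45, 12.43 and 12.42 on day 7 at 150, against 12.74, 12.76, 12.76 and 12.61 at 0, and 12.47, 12.18, 12.38 and 12.23 on day 2, against 12.56, 12.64, 12.66 and 12.51. Neither pair of groups overlapped, and the changes were -0.28 ± 0.07 (adjusted p = 0.0157) and -0.27 ± 0.07 (adjusted p = 0.00731). In males Acadm was at -0.05 ± 0.07 on day 7 and -0.12 ± 0.07 on day 2, and the male minus female difference in response, 0.19 ± 0.07, did not pass (adjusted p = 0.999). Acadl, for long chains, had 11.52, 11.59, 11.30 and 11.58 in females on day 7 at 150, against 11.76, 11.88, 11.69 and 11.80 at 0 (-0.28 ± 0.07, adjusted p = 0.0159). Acads, for short chains, had 10.37, 10.53, 10.24 and 10.56 in males on day 2 at 150, against 10.96, 10.50, 10.78 and 10.78 at 0, where 1 control lay among the treated arrays (-0.33 ± 0.09, adjusted p = 0.00923). In the mean of the 4, Acadm fell by 0.18, Acadl by 0.16 and Acads by 0.21, each with an SE of 0.04.

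**Figure D3:**
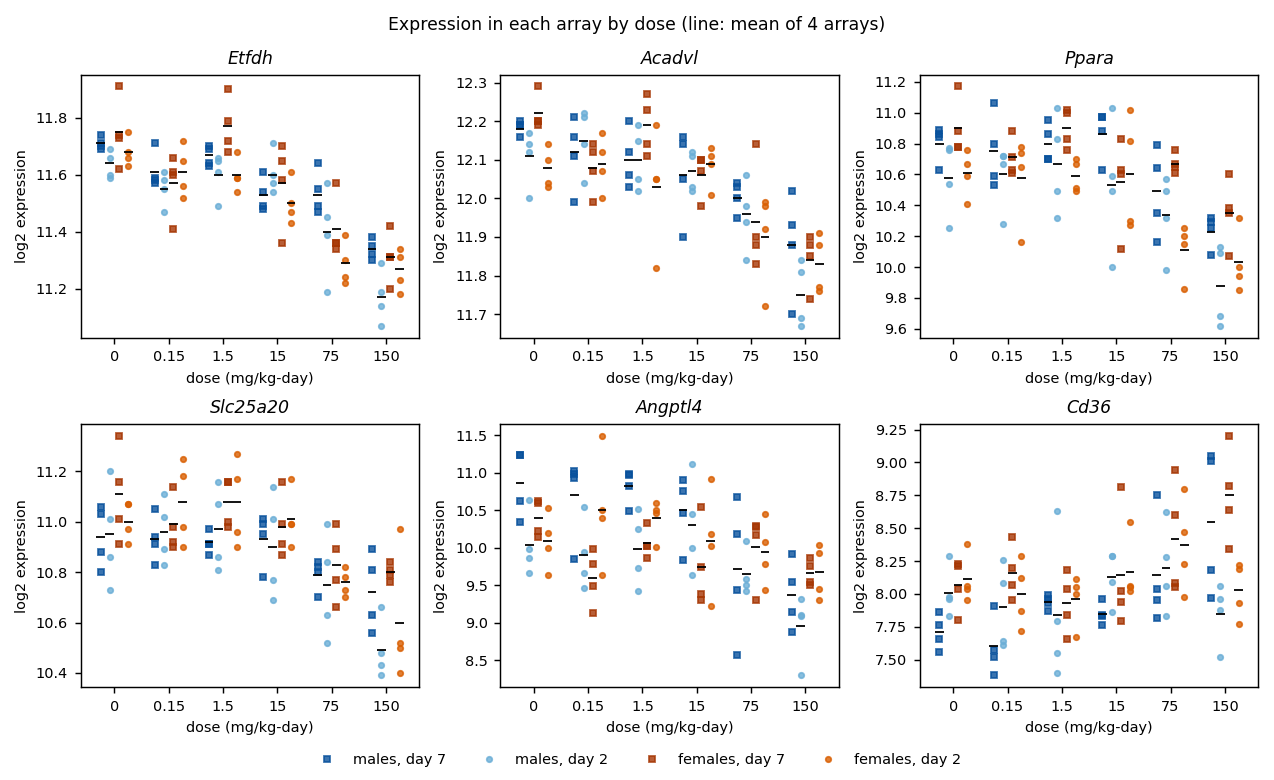
Log2 expression (vertical axis) in each array by dose (horizontal axis, mg/kg-day, evenly spaced) for Etfdh, Acadvl, Ppara, Slc25a20, Angptl4 and Cd36. Squares are day 7, circles day 2, blues males and oranges females, and lines are means of 4 arrays. For Etfdh all 16 arrays at 150 (11.07 to 11.42) lie below all 16 at 0 (11.59 to 11.91), whereas the Cd36 arrays at 150 rise above their controls on day 7 and overlap them on day 2.

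The trifunctional protein holds the hydratase and long-chain hydroxyacyl-CoA dehydrogenase in its alpha subunit, Hadha, and the thiolase in its beta subunit, Hadhb. Hadha had 10.44, 10.29, 10.45 and 10.34 in males on day 7 at 150, against 10.62, 10.73, 10.62 and 10.55 at 0, and 10.36, 10.31, 10.25 and 10.45 in males on day 2, against 10.75, 10.49, 10.38 and 10.56. The day 7 groups were separate and the day 2 groups overlapped. In females Hadha had 10.43, 10.48, 10.30 and 10.42 at 150 on day 7, against 10.70, 10.66, 10.71 and 10.82, and 10.55, 10.33, 10.45 and 10.37 at 150 on day 2, against 10.66, 10.59, 10.56 and 10.78. Both female comparisons were free of overlap, by 0.01 log2 units on day 2. Hadha fell by 0.25 ± 0.03 in the mean of the 4 (adjusted p = 2.13e-08).

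Hadhb had 11.68, 11.60, 11.59 and 11.61 in males on day 7 at 150, against 11.83, 11.79, 11.74 and 11.79 at 0, and 11.30, 11.39, 11.36 and 11.54 in males on day 2, against 11.80, 11.54, 11.70 and 11.66. In females it had 11.60, 11.63, 11.58 and 11.61 at 150 on day 7, against 11.97, 11.82, 11.85 and 11.93, and 11.61, 11.40, 11.63 and 11.43 on day 2, against 11.72, 11.78, 11.80 and 11.78. Treated arrays lay below the controls in all but males on day 2, where 1 treated and 1 control array met at 11.54. The mean change of Hadhb, -0.25 ± 0.03 (adjusted p = 2.53e-09), was the size of that of Hadha to 2 decimals. Its second probe set, with a mean level of 10.51, gave -0.12 ± 0.07 and did not pass (adjusted p = 0.27 among all probe sets). A dimmer one gave -0.20 ± 0.07 (adjusted p = 0.0403 among all probe sets). With all probe sets averaged, the calls of Hadhb in single combinations were lost.

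Acaa2, the mitochondrial thiolase for shorter chains, had 12.81, 12.62, 12.97 and 12.89 in males on day 7 at 150, against 13.08, 13.08, 12.94 and 12.97 at 0, which overlapped. The males of day 2 had 12.68, 12.72, 12.53 and 12.72, against 12.94, 12.97, 12.93 and 12.95, and in females it had 12.84, 12.85, 12.45 and 12.75 on day 7, against 12.97, 13.15, 13.05 and 13.12, and 12.79, 12.61, 12.76 and 12.58 on day 2, against 13.01, 13.06, 12.91 and 12.85. The last 3 comparisons showed no overlap. Acaa2 fell by 0.28 ± 0.04 in the mean of the 4 (adjusted p = 2.39e-09). Hadh, the dehydrogenase for shorter hydroxyacyl-CoAs, was at -0.04 ± 0.03 (adjusted p = 0.381). Its second probe set, with a mean level of 12.42 against 13.36, gave -0.15 ± 0.04 (adjusted p = 0.00319 among all 34945 probe sets), so the result for Hadh depended on the probe set.

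Unsaturated fatty acids need isomerases and reductases, of which Eci2 and Eci1 fell. Eci2 had 10.53, 10.28, 10.41 and 10.22 in males on day 7 at 150, against 10.77, 10.82, 10.59 and 10.87 at 0, and 10.11, 10.10, 10.28 and 10.35 in males on day 2, against 10.91, 10.66, 10.51 and 10.33. In females it had 10.69, 10.63, 10.60 and 10.56 on day 7, against 11.06, 11.15, 11.00 and 10.98, and 10.38, 10.54, 10.71 and 10.49 on day 2, against 10.81, 10.94, 10.67 and 10.72. The day 7 groups were separate in both sexes and the day 2 groups overlapped by 1 array. Eci2 fell by 0.37 ± 0.06 in the mean of the 4 (adjusted p = 3e-07). Eci1 ran from 10.75 to 11.45 at 150 and from 11.09 to 11.55 at 0, and fell by 0.15 ± 0.05 (adjusted p = 0.029), a call lost under 9 of 42 alternatives. Decr2 was at -0.09 ± 0.07 (adjusted p = 0.44). Decr1 was at -0.11 ± 0.04 (adjusted p = 0.0519), while its second probe set gave -0.24 ± 0.05 (adjusted p = 0.000225 among all probe sets).

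Etfdh, the ubiquinone oxidoreductase that passes electrons from ETF to the respiratory chain, had the smallest p among the 10252 genes whose mean change at 150 was below 0, and rank 23 among all genes. Males of day 7 had 11.32, 11.35, 11.38 and 11.30 at 150, against 11.70, 11.74, 11.71 and 11.69 at 0, and in males on day 2 it had 11.19, 11.07, 11.14 and 11.29, against 11.69, 11.66, 11.59 and 11.60. In females on day 7 it had 11.31, 11.42, 11.31 and 11.20, against 11.91, 11.74, 11.73 and 11.62, and on day 2 it had 11.34, 11.18, 11.31 and 11.23, against 11.75, 11.68, 11.63 and 11.66. No treated array of any group reached any control array of the 4 groups. The changes of Etfdh were -0.37, -0.46, -0.44 and -0.41 in that order, each with an SE of 0.06 and adjusted p of at most 2.58e-05, and none of these calls was lost under any alternative run. In the mean of the 4 it fell by 0.42 ± 0.03, or 25.4% (adjusted p = 1.04e-18).

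The subunits of ETF behaved differently from its oxidoreductase in size. Etfa ran from 12.33 to 12.67 at 150 and from 12.51 to 12.73 at 0, and fell by 0.14 ± 0.03 (adjusted p = 0.000189). Etfb ran from 12.39 to 12.78 at 150 and from 12.27 to 12.72 at 0, and was at 0.06 ± 0.03 (adjusted p = 0.216), above 0 in all 4 combinations. The 95% intervals of the 3 mean changes, -0.48 to -0.36 for Etfdh, -0.19 to -0.08 for Etfa and -0.01 to 0.13 for Etfb, did not meet, although a difference between genes was not tested.

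Of the 3 genes grouped under peroxisomal oxidation and division, Pex11a, Ehhadh and Acaa1b, Pex11a fell. Genes placed in other role groups were not counted here. Pex11a, which drives peroxisome division, had 9.50, 9.42, 9.44 and 9.45 in females on day 7 at 150, against 10.13, 10.16, 9.66 and 9.71 at 0, with no overlap (-0.46 ± 0.13, adjusted p = 0.0256). This call was lost under 6 of 18 alternatives, and the mean change was -0.25 ± 0.06 (adjusted p = 0.00198). Ehhadh, the peroxisomal bifunctional enzyme, was at -0.07 ± 0.07 (adjusted p = 0.583) and the thiolase gene Acaa1b at 0.10 ± 0.07 (adjusted p = 0.358). Acaa1b shares 2 further probe sets with its near copy Acaa1a, which were not used.

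Among the acyl-CoA thioesterases, Acot1 and Acot2 fell in the mean of the 4 and Acot4 did not pass the test. Acot1, the cytosolic form, had 7.01, 6.35, 6.67 and 6.53 in males on day 7 at 150, against 7.95, 7.51, 7.44 and 7.85 at 0, and 6.90, 6.84, 6.06 and 6.68 in females on day 7, against 8.41, 7.60, 7.54 and 7.28. Treated and control arrays did not overlap on day 7, with changes of -1.05 ± 0.33 (adjusted p = 0.0612) and -1.09 ± 0.33 (adjusted p = 0.0556), large but just short of the threshold at this spread. On day 2 Acot1 was at -0.42 ± 0.33 in males and 0.03 ± 0.33 in females, and the day 7 minus day 2 difference of -0.87 ± 0.33 did not pass (adjusted p = 0.181). The mean change was -0.63 ± 0.16 (adjusted p = 0.00299). Acot2, the mitochondrial form, ran from 6.74 to 7.93 at 150 and from 7.15 to 7.97 at 0 and fell by 0.27 ± 0.08 (adjusted p = 0.00776), a call lost when all its probe sets were averaged. Acot1 and Acot2 are near copies that share a further probe set, so their signals may not be fully separate.

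In the mean of the 4 combinations the median change was smaller at lower doses, but not in every combination. Comparisons at different doses share the same control arrays, so their values are set side by side and not counted as separate evidence. The median log2 change of the 35 genes was -0.05 at 0.15, 0.00 at 1.5, -0.07 at 15, -0.16 at 75 and -0.18 at 150 mg/kg-day, in the mean of the 4 combinations. For females on day 7 it was -0.17 at 0.15, -0.03 at 1.5, -0.13 at 15, -0.23 at 75 and -0.28 at 150, and in females on day 2 it was -0.21 at 75 and -0.17 at 150. At 75, 18 were lower (3.56% of all genes) and none higher (limma, 5.36% of all genes). An unadjusted p under 0.05 was met by 25, and by 4172 of all 18193 genes. At this dose 9 of 13 Kupffer cell and macrophage markers were higher (median 0.43, Cd5l, Timd4, Csf1r, Cd68, Mpeg1, Lyz2, C1qa, C1qb and C1qc), against 2 of 13 at 150, and of 11 stellate cell markers Col1a1 and Col1a2 were higher, and their part in the calls at 75 was not tested. Of the 18, 17 were also lower at 150, and Crat (-0.17 ± 0.05, adjusted p = 0.0182) was called at 75 alone. The call at 75 was lost under 26 of 42 alternatives for Acadl, 14 for Angptl4 and 9 for Eci1. Acads, Acot2, Cpt1a, Pdk4 and Pex11a were called at 150 alone. The estimates of 19 of the 35 stood in falling order over 15, 75 and 150, whether or not they passed the test. That order was not counted over all genes, and the doses share their controls, so the count is a description only. In Ppara the estimates were -0.09, -0.32 and -0.60 at these doses, and in Angptl4 -0.19, -0.52 and -0.93, whereas in Acot1 they were -0.28, -0.73 and -0.63.

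At 75 in single combinations, Etfdh, Hadhb, Hadha and Acadm were lower in females on day 2 (0.143% of all genes) and Etfdh, Acadvl, Acaa2 and Hadhb in females on day 7 (0.324%), by 0.26 to 0.39 log2 units. None passed in males on day 7 (0.0% of all genes were lower) or in males on day 2 (0.077%). At an unadjusted p under 0.05 were 10 of the 35 on day 7, against 1571 of all 18193 genes. On day 2 they were 5 of the 35, against 1922 of all genes. The array labelled males, day 2, 75 mg/kg-day, replicate 1 had 11.57 for Etfdh, against 11.45, 11.39 and 11.19 in the rest of its group. Without the 2 arrays that go against their labels, Etfdh passed in males on day 2 (-0.29, adjusted p = 0.0107, in place of -0.24, adjusted p = 0.0642), and 17 in place of 18 genes were lower at 75 in the mean of the 4. Angptl4 (-0.50, adjusted p = 0.052) and Acadl (-0.10, adjusted p = 0.0716) were lost there and Acot2 (-0.24, adjusted p = 0.0408) was gained.

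At 15 mg/kg-day Etfdh alone passed in the mean of the 4, at -0.14 ± 0.03 (adjusted p = 0.0286), where 0.011% of all genes were lower. Its levels at 15 were 11.49, 11.48, 11.61 and 11.54 in males on day 7, 11.54, 11.71, 11.57 and 11.60 in males on day 2, 11.58, 11.70, 11.65 and 11.36 in females on day 7, and 11.43, 11.61, 11.47 and 11.50 in females on day 2. All 4 male arrays of day 7 and all 4 female arrays of day 2 lay below their controls, and the other 2 groups overlapped theirs. Replicate 2 of females on day 2 at 15 (11.61) correlated least with its own group over all genes. Its median r of 0.9897 was below a cut of 0.9901 set from the spread of these values over the arrays, and the array was kept. Without the 2 arrays against their labels the estimate stayed at -0.14 and the adjusted p was 0.056. At 1.5 and 0.15 none of the 35 passed (limma, 0.0% of all genes in either direction). An unadjusted p under 0.05 was met by 3 of the 35 at 1.5 (913 of all genes) and 6 at 0.15 (1256 of all genes). At 0.15 in females on day 7, 33 of the 35 estimates were below 0, a count not taken over all genes. Of the 35, 14 had an unadjusted p under 0.05, as did 781 of all 18193 genes, and none passed the adjusted threshold. The 13 calls at 150 in females on day 7 rest on the same controls. Over both sexes, controls of day 7 minus day 2 had a median of 0.13 among the 35, against -0.01 over all genes. The part of control levels in these calls was not tested. Etfdh was at -0.03 ± 0.03 at 1.5 and -0.11 ± 0.03 at 0.15 (adjusted p = 0.575), so its estimates did not fall evenly over the lowest doses.

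The response at 150 was also compared between the sexes. The male minus female difference in response passed for none of the 35 genes, where 0.0715% of all genes passed in either direction. An unadjusted p under 0.05 was found for 2 of the 35, Acadm and Angptl4, and for 838 of all 18193 genes, a similar share. For Etfdh the difference was 0.01 with a 95% interval of -0.12 to 0.13, and for Ppara -0.07 with an interval of -0.39 to 0.25. For Angptl4 it was -0.72 with an interval of -1.38 to -0.05 (adjusted p = 0.999).

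In untreated livers 8 of the 35 genes were lower in males than in females over both days, and none was higher, where 6.52% of all genes were lower and 3.72% higher. Hadh had 13.28, 13.38, 13.14 and 13.25 in males on day 7 and 13.23, 13.19, 13.24 and 13.09 on day 2, against 13.53, 13.53, 13.56 and 13.46 in females on day 7 and 13.49, 13.57, 13.54 and 13.46 on day 2. Acot4, the peroxisomal succinyl-CoA thioesterase, had 6.43, 6.40, 6.16 and 6.20 in males on day 7 and 6.45, 6.29, 6.19 and 6.25 on day 2, against 7.63, 7.80, 8.31 and 7.81 in females on day 7 and 7.72, 6.73, 6.93 and 7.53 on day 2. For both genes every male array lay below every female array, by -0.29 ± 0.04 in Hadh (adjusted p = 1.99e-08) and -1.26 ± 0.16 in Acot4 (adjusted p = 9.63e-09). Vnn1 ran from 6.23 to 6.98 in males and from 6.85 to 9.53 in females, overlapping at the edge (-1.36 ± 0.35, adjusted p = 0.00436).

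Cpt1a was 0.48 ± 0.11 log2 units lower in untreated males (adjusted p = 0.000781), with 10.66 to 10.92 on day 7 and 10.46 to 10.51 on day 2, against 11.20 to 11.57 and 10.62 to 11.13 in females. On each day the sexes were separate. Acadm (-0.24 ± 0.05, adjusted p = 0.000331), Acot2 (-0.39 ± 0.11, adjusted p = 0.0139), Eci2 (-0.23 ± 0.08, adjusted p = 0.0456) and Etfb (-0.14 ± 0.05, adjusted p = 0.0455) were also lower in males. The last 2 were lost under 14 and 15 of 26 alternatives, and Acot2 under 2, without replicate 1 of untreated females on day 2 and at -0.18 with all probe sets averaged, and the count of 8 became 5 without replicate 1 of untreated females on day 2. Untreated livers of day 7 minus day 2 gave no call among the 35 (limma) and 6 calls among all genes, all lower (0.033%). Among the 35 the median difference was 0.13, and 17 had an unadjusted p under 0.05, as did 1946 of all 18193 genes.

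**Figure D4:**
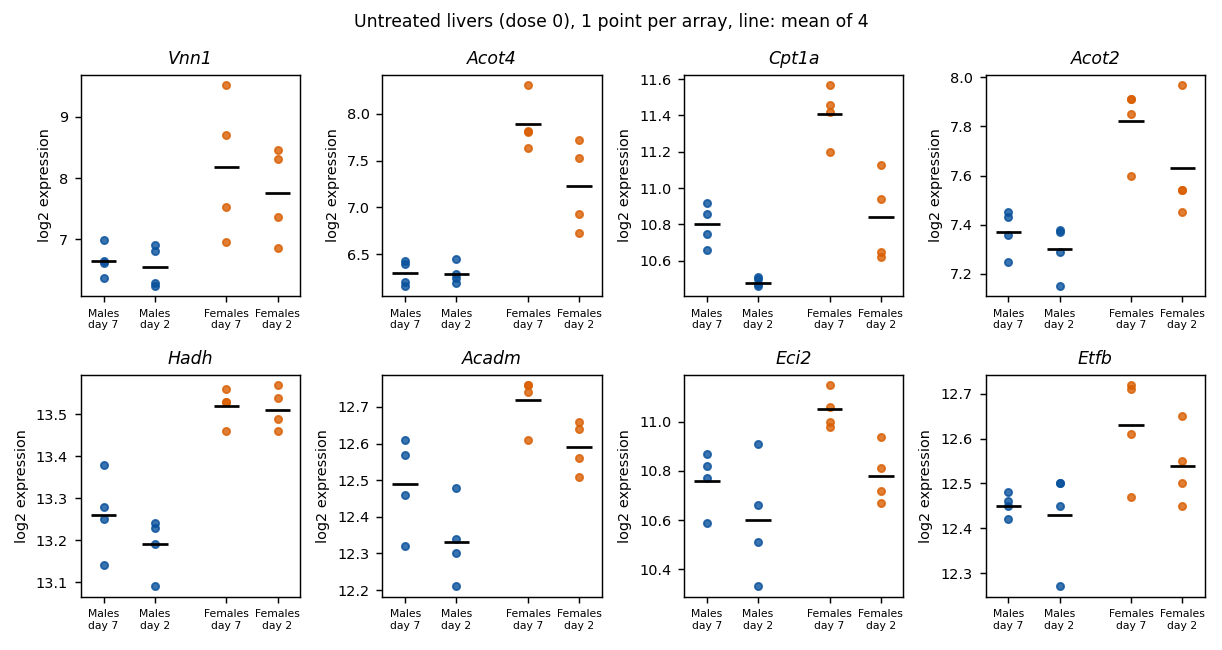
Log2 expression (vertical axes, which differ between panels) of the 8 genes that were lower in males than in females at dose 0, with 1 point per array, 4 arrays per group, and a line at each mean. Males stand left of females, and day 7 left of day 2. Over both days, male and female points are fully separate for Hadh and Acot4 and meet or overlap for the other 6.

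Beyond the 35, lists of genes of the same pathway were read in the mean of the 4 at 150, against the same 9.42% lower and 8.27% higher. Of 14 transcription partners 7 were lower and 1 higher. Among the lower were Nr1i3, the gene for CAR, by -0.62 ± 0.10 (adjusted p = 1.58e-06), Rxra, the partner of both receptors, by -0.17 ± 0.04 (adjusted p = 0.00025), and the coactivator Lpin1 by -0.91 ± 0.22 (adjusted p = 0.00104). The higher gene was Pparg, by 0.43 ± 0.11 (adjusted p = 0.00164). Of 29 further peroxisomal genes 8 were lower and 1 higher, among them Phyh, the hydroxylase for branched chains (-0.21 ± 0.03, adjusted p = 2.48e-07), and Hsd17b4, the bifunctional enzyme for branched chains (-0.15 ± 0.03, adjusted p = 0.000125). Of 28 further mitochondrial genes 5 were lower and 3 higher, and Acsm2, a medium-chain acyl-CoA synthetase, rose by 1.17 ± 0.16 (adjusted p = 7.84e-09) while the carnitine transporter Slc22a5 rose by 0.23 ± 0.05 (adjusted p = 0.000204). The medians of these lists were -0.16, -0.06 and -0.01, against -0.01 over all genes.

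Of 7 ketone body genes 2 were lower and 1 higher: Acat1, the mitochondrial acetoacetyl-CoA thiolase, by -0.53 ± 0.05 (adjusted p = 8.82e-14), Bdh1, hydroxybutyrate dehydrogenase, by -0.17 ± 0.04 (adjusted p = 0.00138), and the transporter Slc16a6, which rose by 0.30 ± 0.11 (adjusted p = 0.0477). Of 33 genes of uptake and lipolysis 12 were lower and 5 higher. Plin5, a droplet coat of oxidative tissues, fell by 0.80 ± 0.09 (adjusted p = 1.7e-10) and Slc27a2, a fatty acid transporter and very long chain acyl-CoA synthetase, by 0.22 ± 0.04 (adjusted p = 2.71e-06), whereas the lipase gene Ces1d rose by 0.66 ± 0.09 (adjusted p = 1.75e-08) and the lipase activator Abhd5 by 0.36 ± 0.06 (adjusted p = 2.49e-06). Of 32 other genes known to respond to PPAR alpha 7 were lower and 5 higher, with the retinol saturase Retsat at -0.83 ± 0.11 (adjusted p = 2.53e-09), Gpd1, glycerol-3-phosphate dehydrogenase, at -0.41 ± 0.05 (adjusted p = 1.5e-10), the glycerol channel Aqp9 at -0.34 ± 0.05 (adjusted p = 2.52e-07) and Aldh1a1 at 0.48 ± 0.05 (adjusted p = 7.15e-13). These lists moved in both directions, and their medians were -0.17, -0.04 and -0.03.

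Lists for other states and cell types were read in the same mean of the 4 at 150, where 9.42% of all genes were lower and 8.27% higher. Of 21 fasting and feeding genes 3 were lower and 4 higher: the lipogenic Pnpla3 rose by 1.08 ± 0.21 (adjusted p = 7.02e-05), Elovl6 by 0.69 ± 0.15 (adjusted p = 0.000208) and Thrsp by 0.78 ± 0.18 (adjusted p = 0.000473), while G6pc, the last enzyme of glucose release, fell by 0.61 ± 0.15 (adjusted p = 0.0015). Of 19 clock genes 4 were lower and 1 higher, with Wee1 at 0.61 ± 0.11 (adjusted p = 1.97e-05) and Hlf at -0.19 ± 0.06 (adjusted p = 0.0153). Clock was at -0.23 ± 0.07 (adjusted p = 0.0156) and Arntl at -0.62 ± 0.20 (adjusted p = 0.0186). The median change was -0.01 in the fasting and feeding list and -0.01 in the clock list, as over all genes. Of 11 stellate cell markers 5 were lower, and the sum of the 11 was 12.72 to 13.18 at 150 and 12.96 to 13.43 at 0. This sum lay below the controls without overlap in females on day 7 (13.05 to 13.18 against 13.33 to 13.43) and on day 2 (13.01 to 13.13 against 13.25 to 13.40). It overlapped in both male groups. Of 7 pancreatic acinar markers Cela1 alone was lower, by -0.58 ± 0.08 (adjusted p = 3.59e-08), and the median change of the 7 was -0.01. The brightest of the 7 averaged 11.47 over all arrays, so the sum of these markers mostly follows 1 gene. Their sum was 11.24 to 11.69 at 150 and 11.70 to 12.00 at 0 in males on day 7, 11.26 to 11.67 against 11.43 to 11.83 in males on day 2, 10.74 to 11.40 against 11.68 to 12.20 in females on day 7, and 11.16 to 11.25 against 11.72 to 12.09 in females on day 2. Of 9 neutrophil markers S100a8 alone was higher, by 2.52 ± 0.36 (adjusted p = 6.86e-08), and the median change of the 9 was -0.06. Their sum was 8.69 to 12.96 at 150 and 8.54 to 9.93 at 0. The part of feeding, time of day or cell makeup in the fall of the oxidation genes was not tested.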

How the data were processed

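Per the labels, total RNA was extracted with Trizol, and 4 μg was amplified and biotin-labelled. The deposited values are log2 expression values that the authors had normalized between arrays, by a method that the labels do not state. Array medians ran from 5.35 to 5.44. The number of arrays limits the precision, and the labels do not say that each array is a separate mouse, so p-values measure the spread between these samples. Of 45101 probe sets, 64 controls were left out, 34945 had 1 gene symbol, 932 had several and 9160 none; only those with 1 symbol were named. Highest-mean probe sets gave 18193 genes, 9010 of which had more than 1.

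The 36 genes and the other lists were chosen with earlier results of these data known. In R 4.3.3, limma 3.58.1 estimated 24 group means from the 96 arrays together (72 residual degrees of freedom), two-sided, with Benjamini-Hochberg adjustment over 18193 genes and a threshold of 0.05. SE is limma's standard error. "Rose", "fell", "lower" and "higher" in counts mean past that threshold. Array values were given for genes called at 150, in full for those with the smallest adjusted p, and up to 4 called genes of each further list were named by adjusted p. Marker sums are log2 of the summed linear signal, in which the brightest markers weigh most. Alternatives were another choice of probe set, dim genes left out, quantile normalization, median centring, another variance moderation, array weights, the replicate number as a block, the groups compared alone, and each array left out. Further ones, chosen after seeing the data, left out the 2 arrays against their labels, alone or with replicate 2 of females on day 2 at 15. The fit was tested on simulated data. Replicate numbers in the titles were checked as pairs: over 16 same-numbered pairs at 150 and 0, deviations correlated from -0.161 to 0.139. Pairs of different numbers ran from -0.259 to 0.265. No pairing was seen, but with 4 arrays a group and only these doses the check cannot exclude one. The samples were not treated as paired in the main fit. A planned comparison of protein sequences was not run. Promoter windows were those of RefSeq, GRCm38.p6.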

Additional observations from a re-analysis of the deposited data

Results flagged for a closer look

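Among the 16 genes whose single arrays were read in each sex and day at 150 and at 0, 128 groups of 4 were looked at for an array far from its group, by Dixon's ratio of the gap to the range at its 95% critical value. A gap of this kind was found in 8 groups, and chance gives about 1 in 20. At 150 mg/kg-day, Fgf21 was at 5.07 in replicate 4 of males on day 2, with the other arrays at 5.53 to 5.62. Vnn1 was at 7.15 in replicate 3 of males on day 2 (others 6.42 to 6.51), Acot4 at 6.92 in replicate 3 of females on day 7 (others 7.87 to 7.98) and Cpt1a at 10.16 in replicate 2 of females on day 2 (others 10.59 to 10.62). At 0, Ppara was at 10.63 in replicate 3 of males on day 7 (others 10.84 to 10.89), Fgf21 at 6.58 in replicate 2 of males on day 2 (others 5.68 to 5.80), Acadvl at 12.29 in replicate 4 of females on day 7 (others 12.19 to 12.20) and Hadhb at 11.72 in replicate 1 of females on day 2 (others 11.78 to 11.80).

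The response of Cd36 at 150 differed between the days, by 0.88 ± 0.21 log2 units for day 7 minus day 2 (limma interaction, adjusted p = 0.00775), with all 8 treated arrays above their controls on day 7 and overlap on day 2.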

How the results depend on the processing

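No called result changed direction, while some estimates near 0 crossed it. Single sexes and days depended most on how the spread was estimated: with the groups compared alone, lower genes numbered 4 in males on day 7 (from 6), 4 in males on day 2 (from 9), 5 in females on day 7 (from 13) and 2 in females on day 2 (from 8), and the 1 higher gene of males on day 7, Cd36, became 0. Both day 7 counts include a gene that the main fit did not call, so fewer of its calls were kept than these counts. With all probe sets averaged, males on day 2 had 5 lower. Cd36 made 1 higher call in females on day 7 under quantile normalization, array weights or the replicate block, and 1 in the mean at 75 with all probe sets averaged, dim genes left out or the replicate block, in place of 0. The call of Etfdh at 15 became 0 with all probe sets averaged, with the groups compared alone, or without the 2 arrays against their labels, an alternative chosen after seeing the data. The block changed no other count by over 1.5 times, and the numbers were not taken as pairs in the main fit.

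Leaving out 1 array at a time gave 19 to 24 lower genes (from 22) and 0 to 1 higher at 150 in the mean, 15 to 20 lower and 0 to 1 higher at 75, and 0 to 2 lower at 15. Lower genes ran from 3 to 7 in males on day 7, 6 to 11 in males on day 2, 6 to 13 in females on day 7 and 4 to 8 in females on day 2, with 0 to 1 higher on day 7 in each sex. Untreated males against females gave 5 to 9. The causes were not tested. With 4 arrays a group the precision is limited, most for dim or variable genes such as Fgf21, Pdk4 and Vnn1.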
